A study of Caenorhabditis elegans with 16 samples.

Results

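The question was which genes of whole Caenorhabditis elegans worms answered added copper differently in a cua-1 mutant and in control worms. All 16 libraries of the study enter it, 16 of 16, in 4 groups of 4. They are copper-treated mutant worms, genotype cua-1(H828Q), on plates with 100 µM CuCl2, untreated mutant worms on plates with no added copper, copper-treated control worms on 100 µM CuCl2, and untreated control worms with no added copper. Every group was grown for 3 days at 20 °C on NGM agar with Escherichia coli OP50 as food, in synchronised cultures, and RNA was taken from whole worms and counted with a 3′ digital mRNA method. The control strain has no name in the labels, which do not say whether it shares the mutant's background. They also do not say whether the 4 samples of a group came from separate cultures beyond calling them biological replicates. The allele is a missense change that counts at 3′ ends cannot show, so the genotype labels could not be checked from these data.

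CUA-1 is the worm's copper-transporting P-type ATPase, the counterpart of the human pumps ATP7A and ATP7B that are altered in Menkes and Wilson disease. Such pumps receive copper from a small chaperone in the cytosol, load it into copper enzymes in the secretory pathway and move excess copper out of the cell or into storage vesicles. In the worm the gut takes up, stores and passes on dietary copper, and it is also the tissue that makes yolk and many of the antimicrobial and digestive proteins described below.

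The interaction is a difference of 2 log2 changes, the response to copper in the mutant less the response to copper in the control. A positive interaction means that copper moved a gene further up, or less far down, in the mutant than in the control. It is written "higher" below, and a negative interaction "lower". A gene was called at an edgeR adjusted p below 0.05 over the 9787 genes tested. Levels are normalised read counts (CPM, counts scaled to library size), and ± after a log2 value gives its standard error from the fit. In whole worms, fewer cells of a type and less RNA per cell cannot be told apart.

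Total counts per library ran from 1891008 to 4001750, and 3 counts corresponded to 0.75 to 1.59 CPM. A group of 5 libraries stood apart, with few counts of long transcripts: copper-treated mutant replicate 4, copper-treated control replicate 1 and untreated control replicates 1, 3 and 4. In these 5 the median log2 CPM of genes over 3000 bp minus that of genes under 800 bp lay between -2.23 and -0.60, against 0.23 to 1.14 in the other 11. Ribosomal protein genes took 34.8% to 37.88% of counts in the 5 long-depleted libraries and 24.97% to 31.19% in the others. The depletion falls unevenly over the groups, with 1 library in the copper-treated mutant, 0 in the untreated mutant, 1 in the copper-treated control and 3 in the untreated control, so the depletion and the interaction cannot be fully told apart. A value without the 5 libraries is therefore given beside each called gene that lost its call or moved by over 1.5 times there, and beside some others. In that fit the untreated control rests on replicate 2 alone, whose spread had to be taken from the other groups.

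The targeted gene, cua-1 (minus strand of chromosome III in build WBcel235, 13439730 to 13455307, WBGene00000834), had 17.7, 21.3, 24 and 7.67 CPM in the copper-treated mutant and 36.8, 20.1, 32.8 and 27.5 CPM in the untreated mutant. In the control it had 11.8, 32.9, 24 and 29.6 CPM with copper, against 5.05, 22.1, 8.82 and 11.2 CPM without. The lowest library of each of 3 groups was a long-depleted one, and the groups overlapped in both genotypes. The interaction was -1.75 ± 0.60 (adjusted p = 0.0942), and it was -0.83 without the long-depleted libraries. It was called in 3 of 28 alternatives, described below. Over all of these its estimate ran from -2.28 to -0.35 and its adjusted p from 0.016 to 0.787. The change with copper was -0.72 ± 0.41 in the mutant (adjusted p = 0.509) and 1.03 ± 0.43 in the control (adjusted p = 0.225).

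The interaction was called for 527 of the 9787 genes tested (5.38%), 402 higher (4.11%) and 125 lower (1.28%). These shares are the background for all counts of called list members below. At an unadjusted p under 0.05 there were 2814 genes. Copper alone gave fewer calls: 219 genes in the mutant (2.24%), 174 of them higher and 45 lower with copper, and 174 genes in the control (1.78%), 45 higher and 129 lower. The 402 higher genes included 48 cuticle collagens, 12 FMRFamide-like and 19 other peptide genes, 6 aspartyl proteases and 15 C-type lectins. The 125 lower genes included 4 yolk protein genes, the lysozyme gene lys-7 and 3 fatty acid elongases.

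**Figure D1:**
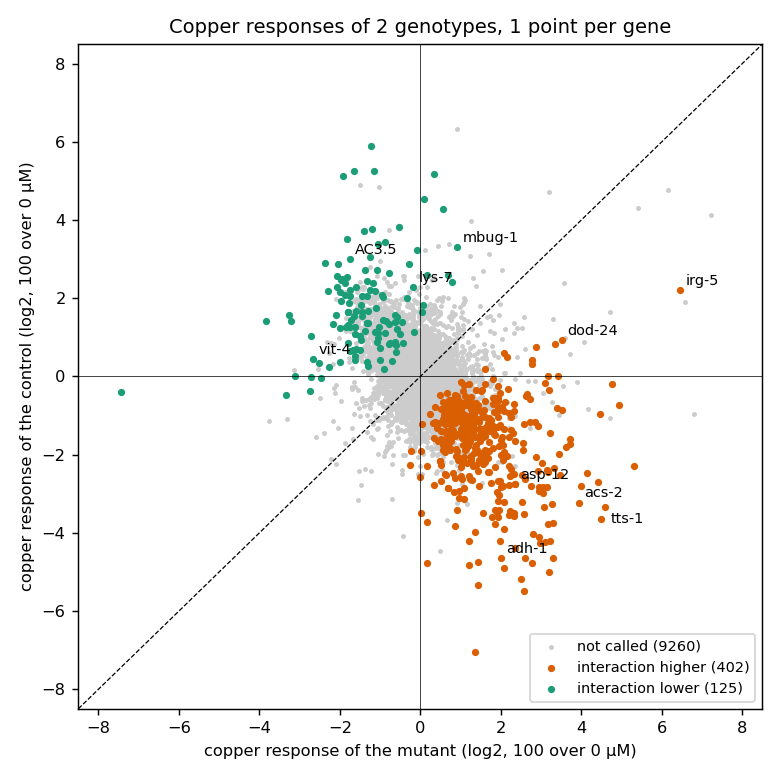
Copper response of the mutant (horizontal, log2 of 100 over 0 µM) against that of the control (vertical, same unit), 1 point per tested gene, with the 402 genes of higher interaction in orange and the 125 of lower interaction in green. Most orange points lie at the lower right, with estimates that rise in the mutant and fall in the control, and the dashed line marks equal responses.

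The estimated responses of the 2 genotypes mostly had opposite signs. Of the 402 higher genes, 390 had an estimate above 0 in the mutant and below 0 in the control, 10 were above 0 in both and 2 below 0 in both. Of the 125 lower genes, 111 were below 0 in the mutant and above 0 in the control, 9 were above 0 in both and 5 below 0 in both. The choice of genes by the interaction favours such opposite signs, so these counts are a description.

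Calls within each genotype were fewer. Among the higher genes, 27 were called higher with copper in the mutant and lower in the control, 95 were called higher in the mutant alone, 84 were called lower in the control alone, and 195 were called in neither. A single gene, irg-5, was called higher with copper in both genotypes and more so in the mutant. Among the lower genes, 29 were called lower in the mutant alone, 24 higher in the control alone, 71 in neither, and tag-10 was called lower in the mutant and higher in the control. All 27 genes with opposite calls were also called without the long-depleted libraries, as were 77 of the 95, 76 of the 84 and 124 of the 195.

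**Figure D2:**
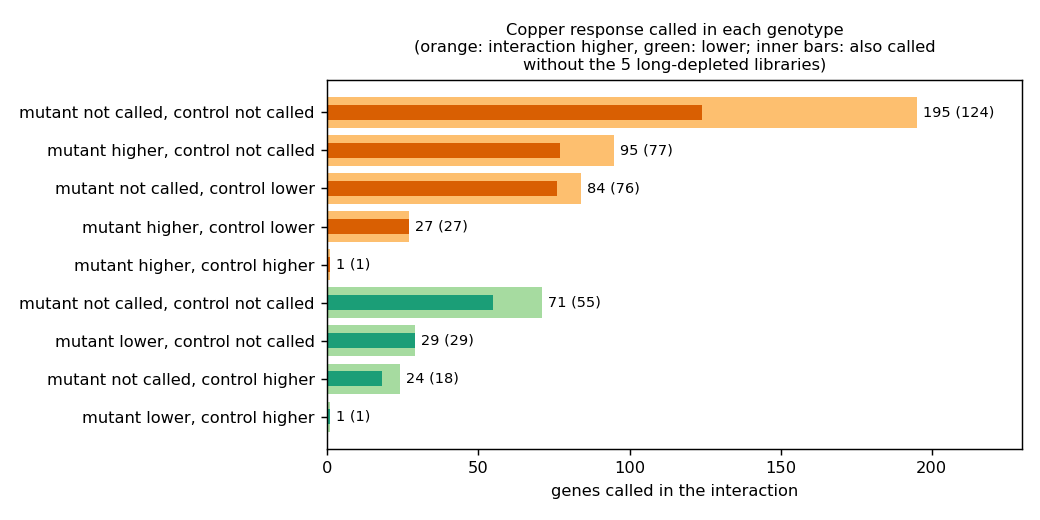
Number of genes called in the interaction by the call of their copper response in each genotype (bars; orange for higher and green for lower interaction), with the genes also called without the 5 long-depleted libraries as inner bars and in parentheses. The class called in neither genotype is the largest in both directions, with 195 higher and 71 lower genes.

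Libraries that do not overlap in either genotype are a stricter description of the same pattern. For 59 genes (0.603% of those tested) every copper-treated mutant library lay above every untreated mutant library while every copper-treated control library lay below every untreated control library, and 56 of them were called. The opposite arrangement held for 26 genes (0.266%), of which 21 were called.

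A pair of genes of fat breakdown and fasting had large interactions. The gene acs-2 (chromosome V, 15567394 to 15569897) encodes an acyl-CoA synthetase that feeds fatty acids into mitochondrial oxidation and is known to be switched on by fasting. It had 25.8, 30.1, 26.2 and 36.9 CPM in the copper-treated mutant, against 2.65, 1.81, 1.30 and 1.80 CPM in the untreated mutant. In the control it had 2.49, 1.43, 5.75 and 1.37 CPM with copper and 37.6, 20.2, 39.2 and 6.74 CPM without. All libraries with copper were above those without in the mutant and below them in the control, with no overlap, and the untreated control spread most. Its interaction was 7.16 ± 0.72 (adjusted p = 4.58e-05), the difference between a rise of 3.94 ± 0.51 in the mutant (adjusted p = 0.00032) and a change of -3.23 ± 0.51 in the control (adjusted p = 0.00344), and it was 6.69 without the long-depleted libraries.

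The glyoxylate cycle enzyme gene icl-1 (chromosome V, 724332 to 728004), whose product lets worms make sugar from fat, had 100, 109, 109 and 128 CPM in the copper-treated mutant and 26.2, 24.4, 20.3 and 16.5 CPM in the untreated mutant. It had 42, 21.4, 25.7 and 26.2 CPM in the copper-treated control, against 237, 145, 357 and 36 CPM in the untreated control. The mutant libraries separated by copper, while copper-treated control replicate 1 lay above untreated control replicate 4. The interaction was 5.09 ± 0.65 (adjusted p = 0.0005) and 4.85 without the long-depleted libraries. These 2 were the called members among 38 fasting, fat breakdown and glyoxylate genes tested, with 0 lower, a share close to the 5.38% of all genes tested that were called. The median interaction of that list was 0.23, against 0.08 over all genes tested.

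The alcohol dehydrogenase gene adh-1, listed as sodh-1 in the deposited table, followed the same course. It had 15.5, 21.5, 17.9 and 12.4 CPM in the copper-treated mutant and 1.98, 6.55, 4.68 and 3.6 CPM in the untreated mutant, and 0.356, 2.38, 1.35 and 1.6 CPM in the copper-treated control against 45.9, 27.1, 58.2 and 11.2 CPM in the untreated control. Neither pair of groups overlapped, and the interaction was 6.64 ± 0.72 (adjusted p = 8.21e-05). The gene tts-1, a non-coding RNA found in dauer and long-lived worms, had 88.6, 101, 97.4 and 114 CPM in the copper-treated mutant and 4.63, 7.46, 1.56 and 2.57 CPM in the untreated mutant. It had 84.7, 67.1, 42.9 and 70.0 CPM in the copper-treated control, against 1009, 272, 1295 and 98.3 CPM in the untreated control. All 8 copper-treated libraries of tts-1 lay between 42.9 and 114 CPM, and the untreated libraries lay below these in the mutant and above them in the control, apart from untreated control replicate 4 at 98.3 CPM, which was still above every copper-treated control library. Its interaction was 7.93 ± 0.89 (adjusted p = 0.000133), and 6.71 without the long-depleted libraries.

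Aspartyl proteases, digestive enzymes of the gut and its lysosomes, held the gene with the smallest adjusted p of the whole table. This gene, asp-12 (chromosome V, 8269210 to 8272056), had 180, 162, 143 and 155 CPM in the copper-treated mutant and 27.3, 29.4, 28.9 and 39.6 CPM in the untreated mutant. It had 19.6, 19, 18.6 and 16.4 CPM in the copper-treated control, against 161, 107, 165 and 65.7 CPM in the untreated control. Copper-treated mutant and untreated control were high, untreated mutant and copper-treated control were low, and no high group overlapped a low one. The interaction was 5.11 ± 0.38 (adjusted p = 1.16e-06), with 2.35 ± 0.26 in the mutant and -2.76 ± 0.27 in the control, and 4.98 without the long-depleted libraries.

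Of 10 aspartyl proteases tested, 6 were called higher and 0 lower, with a median interaction of 2.14, against 0.08 over all genes. The other three named members were asp-14 (3.88 ± 0.51, adjusted p = 0.000565), asp-5 (2.09 ± 0.43, adjusted p = 0.00827) and asp-1 (2.20 ± 0.56, adjusted p = 0.0281). Without the long-depleted libraries asp-5 was at 1.19 and asp-1 at 1.05, both still called, and asp-1 lost its call in 12 of 28 alternatives. For asp-14 the levels were 415, 532, 420 and 575 CPM in the copper-treated mutant and 49.6, 87.9, 97.8 and 60.2 CPM in the untreated mutant, which did not overlap. In the control the copper-treated libraries of asp-14, at 96.1, 61.9, 57.1 and 44.7 CPM, overlapped with the untreated ones, at 258, 83.2, 159 and 80.9 CPM. Without the long-depleted libraries the list still counted 6 higher, together with 2 lower, and its median was 1.12. Of 7 gut cysteine proteases, a separate family of digestive enzymes, 1 was called, cpr-8, and it was lower, at -2.15 ± 0.47 (adjusted p = 0.0111).

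**Figure D3:**
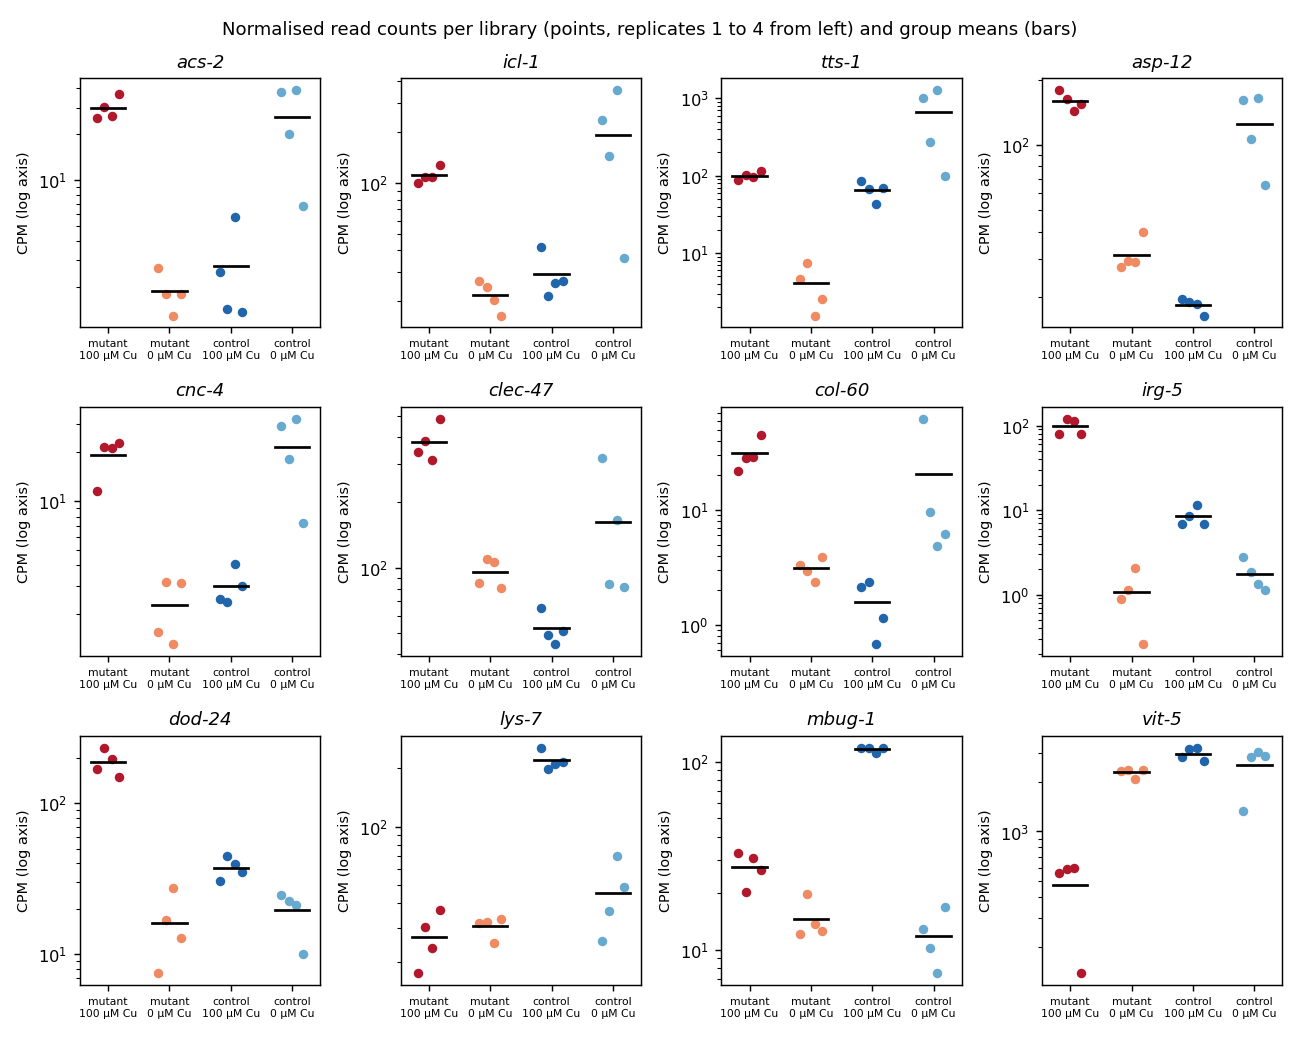
Normalised read counts (CPM, log axis) of 12 genes in each library, with copper-treated mutant, untreated mutant, copper-treated control and untreated control from left to right, replicates 1 to 4 as points and the group mean as a bar. For acs-2, icl-1, tts-1, asp-12, cnc-4, clec-47 and col-60 the means of copper-treated mutant and untreated control lie above those of the other groups. The genes lys-7 and mbug-1 are highest in the copper-treated control, and vit-5 is lowest in the copper-treated mutant.

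Autophagy, the cell's route for delivering its own material to lysosomes, was represented by 26 genes, of which 3 were called higher and 0 lower. Over all genes tested 4.11% were called higher. The receptor gene sqst-1, the worm form of p62, had 16.7, 23.7, 17.9 and 12.4 CPM in the copper-treated mutant and 7.06, 5.87, 6.24 and 5.66 CPM in the untreated mutant. It had 12.8, 11.4, 8.79 and 12.8 CPM in the copper-treated control, against 18.8, 18.1, 26.9 and 21.3 CPM in the untreated control. Neither genotype's groups overlapped, and the interaction was 2.39 ± 0.36 (adjusted p = 0.00139). The Atg8 family genes lgg-2 (1.33 ± 0.32, adjusted p = 0.0201) and lgg-1 (2.26 ± 0.62, adjusted p = 0.0408) were the other two. The call of lgg-1 ended in 17 of 28 alternatives, where the highest adjusted p was 0.530, and that of lgg-2 in 4. The median of the list was -0.02, and its sign changed in 14 of the alternatives, so the list as a whole had no direction.

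Cuticle collagens held the most called genes of any list. These proteins are secreted by the epidermis and crosslinked into the worm's outer coat, with bursts of transcription before each moult. Of 98 tested, 48 were called higher and 0 lower, with a median interaction of 2.86. The median copper response of the list was 1.12 in the mutant and -1.64 in the control. With copper 18 were called higher in the mutant and 0 lower, and in the control 0 were called higher and 21 lower.

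Within that family, sqt-3 (chromosome V, 12352745 to 12354320), a collagen needed for normal body shape, had 9.08, 27.2, 25.3 and 16.1 CPM in the copper-treated mutant and 7.50, 10.6, 9.62 and 5.92 CPM in the untreated mutant. It had 2.14, 1.43, 1.01 and 1.82 CPM in the copper-treated control, against 52.3, 39.9, 19 and 9.55 CPM in the untreated control. The mutant groups overlapped through replicate 1, and the control groups did not overlap. The interaction of sqt-3 was 5.40 ± 0.70 (adjusted p = 0.000528), and the change in the control was -4.20 ± 0.54 (adjusted p = 0.000471).

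For col-60 the copper-treated mutant had 21.8, 28.2, 29.2 and 44.9 CPM and the untreated mutant 3.31, 2.94, 2.34 and 3.86 CPM. The copper-treated control had 2.14, 2.38, 0.676 and 1.14 CPM of col-60, against 62.4, 9.66, 4.85 and 6.18 CPM in the untreated control. The 2 groups of each genotype were apart, and untreated control replicate 1, a long-depleted library, stood well above the other libraries of its group. The interaction of col-60 was 7.04 ± 0.98 (adjusted p = 0.000945). The interactions of col-14 (7.24 ± 1.06, adjusted p = 0.00135) and col-65 (7.11 ± 1.06, adjusted p = 0.00139) were among the 12 largest among called genes whose log2 CPM averaged 2 or more. Near-identical collagen copies can share reads, and the counting rule for such reads is not given in the sources used here.

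The number of collagens called depended on the settings, from 18 to 68 higher over the alternatives, while the median kept its sign, from 1.57 to 3.45. Without the long-depleted libraries 41 were higher and 10 lower, with a median of 1.995. Collagen transcripts are short, with a median of 1006 bp against 1375 bp over all genes tested, and the part of transcript length in their interaction was not tested beyond these alternatives. Of 10 moulting genes, 1 was called, mlt-8, which was higher at 3.74 ± 0.86 (adjusted p = 0.0149). The median of the moulting genes was 0.37. The hedgehog-related gene grl-16 was another of those 12, at 7.41 ± 1.29 (adjusted p = 0.00333). It had 15.2, 18.9, 21.1 and 25.9 CPM in the copper-treated mutant and at most 3.31 CPM in the untreated mutant. The copper-treated control held 5 counts of grl-16, and the untreated control had 26.2, 4.98, 0 and 1.69 CPM. Replicate 1, the highest of these, is long-depleted, and the control groups overlapped. The change with copper was 3.21 ± 0.77 in the mutant (adjusted p = 0.0343). In the control it was -4.20 ± 1.05 and not called (adjusted p = 0.0501).

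Genes of secreted signalling peptides were called higher in both lists and lower in neither. Of 28 FMRFamide-like neuropeptide genes tested, 12 were called higher and 0 lower, with a median of 1.69. The gene flp-15 had 30.4, 33, 30.7 and 52.9 CPM in the copper-treated mutant and 10.8, 17.8, 10.7 and 9.53 CPM in the untreated mutant. In the control flp-15 had 16, 7.14, 6.42 and 10.04 CPM with copper and 47.7, 8.41, 30.9 and 23.6 CPM without. The mutant groups were apart and the control groups overlapped, and the interaction was 3.04 ± 0.60 (adjusted p = 0.00637), which was 1.44 without the long-depleted libraries (adjusted p = 0.0382). The other named members were flp-8 at 3.19 ± 0.63, flp-20 at 3.29 ± 0.67 and flp-10 at 1.64 ± 0.35. Each of these lost its call when the balance of long and short transcripts was a covariate.

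Of 55 neuropeptide-like and insulin-like peptide genes, 19 were called higher and 0 lower, with a median of 1.67. Part of this list, the nlp-29 family, encodes antimicrobial peptides of the epidermis rather than neurotransmitters. Its member nlp-33 had 148, 203, 156 and 222 CPM in the copper-treated mutant and 63.1, 78.8, 74.1 and 78.5 CPM in the untreated mutant. In the control nlp-33 had 73.4, 70.0, 48 and 51.3 CPM with copper, against 237, 114, 207 and 92.1 CPM without. Neither pair of groups overlapped, and the interaction was 2.73 ± 0.40 (adjusted p = 0.00129). Its relative nlp-31 followed at 3.29 ± 0.61 (adjusted p = 0.00444), and nlp-10 at 2.94 ± 0.57 and nlp-17 at 2.40 ± 0.46 were the other members with the smallest adjusted p. Over the libraries that are not long-depleted nlp-10 was at 1.90. The nlp-17 gene overlaps a tested gene on the opposite strand, seld-1, and reads of the 2 may not be separable.

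Neuropeptide transcripts are short as well, with list medians of 641 and 527 bp. Over the alternatives 1 to 18 FMRFamide-like genes were called higher, and 9 to 34 genes of the other peptide list. Both medians kept their sign, from 0.77 to 1.97 and from 0.525 to 1.91. Without the long-depleted libraries 9 FMRFamide-like genes were higher and 1 lower, with a median of 0.78, and 16 genes of the other peptide list were higher and 2 lower, with a median of 0.88. Of 24 other neuronal genes 1 was called, the touch-receptor tubulin gene mec-7, at 1.78 ± 0.47 (adjusted p = 0.0321). Its value was 0.76 without the long-depleted libraries (adjusted p = 0.441). The median of the neuronal genes was -0.03.

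Defence genes moved in both directions. Caenacins are antimicrobial peptides of the epidermis, and of 5 tested 3 were called higher and 0 lower. The gene cnc-4 (chromosome V, 1447195 to 1447707) had 11.5, 21.5, 21.3 and 22.6 CPM in the copper-treated mutant and 1.54, 3.16, 1.30 and 3.09 CPM in the untreated mutant. It had 2.49, 2.38, 4.06 and 2.96 CPM in the copper-treated control, against 28.9, 18.1, 32.2 and 7.30 CPM in the untreated control. No groups of 1 genotype overlapped, and the interaction was 5.90 ± 0.62 (adjusted p = 6.22e-05). The other two called caenacins were cnc-2 (2.73 ± 0.65, adjusted p = 0.0192) and cnc-10 (1.40 ± 0.35, adjusted p = 0.0265). Over the 11 libraries that are not long-depleted cnc-10 was at 1.12 and not called (adjusted p = 0.133), and its call ended in 11 of 28 alternatives.

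C-type lectins, sugar-binding proteins many of which are secreted by the gut, counted 15 higher and 3 lower of 58, with a median of 1.03. Over the alternatives the list's median ran from 0.22 to 1.20, and without the long-depleted libraries it was 0.32. The gene clec-52 had 41.5, 44.4, 40.7 and 44.5 CPM in the copper-treated mutant and 4.19, 5.87, 5.46 and 3.6 CPM in the untreated mutant. In the control clec-52 had 2.14, 2.38, 3.04 and 1.82 CPM with copper and 20.2, 5.92, 15.4 and 8.43 CPM without. The groups of each genotype were apart, and the interaction was 5.55 ± 0.50 (adjusted p = 1.17e-05). The more abundant clec-47 had 342, 384, 314 and 487 CPM in the copper-treated mutant and 85.3, 110, 106 and 80.6 CPM in the untreated mutant, and its interaction was 3.64 ± 0.50 (adjusted p = 0.000883). For clec-66 (3.14 ± 0.50) and clec-3 (5.68 ± 0.97) the response was called in the mutant, at 2.63 ± 0.36 and 4.95 ± 0.68, and was not called in the control, at -0.51 ± 0.35 and -0.73 ± 0.69.

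The infection response and CUB-like genes, several of them known as targets of the gut's p38 immune pathway, had 5 members called higher and 0 lower of 16. Their median copper response was above 0 in both genotypes, 1.44 in the mutant and 0.65 in the control. The gene irg-5 (chromosome V, 13737010 to 13738474) had 80.0, 121, 112 and 78.9 CPM in the copper-treated mutant, against 0.882, 1.13, 2.08 and 0.257 CPM in the untreated mutant. It had 6.77, 8.57, 11.5 and 6.84 CPM in the copper-treated control and 2.75, 1.87, 1.32 and 1.12 CPM in the untreated control. Copper-treated libraries were above untreated ones in both genotypes, and the rise was 6.45 ± 0.41 in the mutant and 2.20 ± 0.41 in the control. The interaction was 4.25 ± 0.60 (adjusted p = 0.00102), and 4.37 without the long-depleted libraries.

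The gene dod-24 (chromosome IV, 12940106 to 12941354) had 168, 233, 195 and 148 CPM in the copper-treated mutant, against 7.50, 16.9, 27.3 and 12.9 CPM in the untreated mutant. It had 30.6, 44.8, 39.6 and 34.9 CPM in the copper-treated control and 24.8, 22.4, 21.2 and 10.1 CPM in the untreated control. Again copper-treated libraries were the higher ones in both genotypes, without overlap. The interaction was 2.604 ± 0.478 (adjusted p = 0.00434), with 3.53 ± 0.36 in the mutant and 0.92 ± 0.34 in the control, which was not called (adjusted p = 0.184). The interactions of dod-23 (2.77 ± 0.39, adjusted p = 0.000945) and dod-17 (2.46 ± 0.52, adjusted p = 0.00974) were of like size. Over the alternatives the list counted 5 or 6 higher and 0 to 2 lower members, with 6 and 2 without the long-depleted libraries.

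Lysozymes split. Of 8 tested, 4 were called higher and 1 lower. The lower one, lys-7 (chromosome V, 3481432 to 3482600), a gut lysozyme used as a readout of the DAF-16 and immune pathways, had 17.4, 30.1, 23.5 and 36.9 CPM in the copper-treated mutant and 31.7, 32.1, 25 and 33.2 CPM in the untreated mutant. It had 256, 199, 211 and 214 CPM in the copper-treated control, against 25.7, 36.4, 70.5 and 48.9 CPM in the untreated control. The copper-treated control thus stood above all other groups, and the mutant groups overlapped. The interaction was -2.46 ± 0.41 (adjusted p = 0.00211), with -0.18 ± 0.28 in the mutant (adjusted p = 0.773) and 2.28 ± 0.29 in the control (adjusted p = 0.000471), and -2.85 without the long-depleted libraries.

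The opposite arrangement was seen for lys-2 (chromosome V, 10280307 to 10281474), with 549, 560, 549 and 786 CPM in the copper-treated mutant and 57.8, 93.1, 138 and 69.5 CPM in the untreated mutant. In the control lys-2 had 191, 156, 140 and 127 CPM with copper, against 174, 52.6, 108 and 125 CPM without. The mutant groups were apart and the control groups overlapped. The interaction was 2.35 ± 0.45 (adjusted p = 0.00573), and 1.24 without the long-depleted libraries (adjusted p = 0.136). For lys-5 (3.89 ± 0.73) and lys-6 (2.64 ± 0.52) copper was called lower in the control, at -2.93 ± 0.53 and -2.15 ± 0.37, and the mutant's change was not called. The value of lys-5 was 2.45 in the fit to the 11 libraries that are not long-depleted. Saposin-like proteins, which act on membranes of microbes, counted 4 higher and 0 lower of 16, led by spp-18 at 3.44 ± 0.61 (adjusted p = 0.00368) and spp-2 at 3.88 ± 0.89 (adjusted p = 0.0147). The other two were spp-10 at 1.35 ± 0.31 and spp-22 at 2.38 ± 0.56. In the fit to 11 libraries spp-18 was at 2.15, spp-10 at 0.70 and spp-22 at 1.72, where the last was not called (adjusted p = 0.0624).

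A few other genes also rose in the control and did not rise, or rose less, in the mutant. The gene mbug-1 (F55G11.4 in the deposited table, chromosome IV, 12973624 to 12975603) had 32.6, 20.3, 30.7 and 26.6 CPM in the copper-treated mutant and 12.1, 19.9, 13.8 and 12.6 CPM in the untreated mutant. It had 118.22, 119.03, 111.57 and 117.68 CPM in the copper-treated control, against 12.9, 10.3, 7.49 and 16.9 CPM in the untreated control. Copper-treated libraries were above untreated ones in both genotypes, and those of the control were the highest and the most even. The interaction was -2.39 ± 0.36 (adjusted p = 0.00166), with 0.91 ± 0.25 in the mutant (adjusted p = 0.0755) and 3.30 ± 0.27 in the control (adjusted p = 7.38e-06), and -2.54 without the long-depleted libraries.

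The gene tag-10 (chromosome II, 13632584 to 13636998) was the only one called in opposite directions with a lower interaction. It had 4.42, 6.69, 6.38 and 13.9 CPM in the copper-treated mutant and 20.7, 23.5, 27.3 and 25.5 CPM in the untreated mutant, and 26.4, 15.2, 18.6 and 9.35 CPM in the copper-treated control against 4.59, 6.54, 6.17 and 6.18 CPM in the untreated control. Neither genotype's groups overlapped. The interaction was -3.20 ± 0.50 (adjusted p = 0.00202) and -3.12 without the long-depleted libraries. The gene overlaps phdh-1 on the opposite strand, and without a stated strand setting their reads cannot be told apart.

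Yolk protein genes, expressed in the gut of the adult hermaphrodite and among the most abundant transcripts of the worm, were lower. Of 6 vitellogenin genes tested 4 were called lower and 0 higher, with a median of -2.40. For vit-4 (chromosome X, 3558769 to 3563965) the copper-treated mutant had 450, 443, 512 and 115 CPM and the untreated mutant 2548, 2570, 2002 and 2525 CPM. The copper-treated control had 2750, 3138, 2802 and 2929 CPM of vit-4, against 990, 2342, 2402 and 2844 CPM in the untreated control. All 4 copper-treated mutant libraries lay below every other library, and replicate 4, which is long-depleted, lay lowest.

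The interaction of vit-4 was -3.10 ± 0.52 (adjusted p = 0.00251), with -2.67 ± 0.38 in the mutant (adjusted p = 0.000623) and 0.44 ± 0.36 in the control (adjusted p = 0.447). Those of vit-1 (-2.43 ± 0.39), vit-5 (-2.51 ± 0.50) and vit-3 (-2.37 ± 0.48) were close to it. For vit-1, which had 121, 158, 135 and 44.2 CPM in the copper-treated mutant and 660, 620, 641 and 641 CPM in the untreated mutant, the change in the control was -0.05 ± 0.27. Vitellogenin transcripts are long, and without the long-depleted libraries all 6 were called lower, with a median of -1.96. With offsets for transcript length, vit-1 and vit-3 lost their calls (adjusted p = 0.119 and 0.101), and the median over all alternatives ran from -2.60 to -1.07. The copies vit-3, vit-4 and vit-5 are nearly identical, so the split of reads among them is uncertain.

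Fatty acid synthesis gave lower interactions too. Of 17 fatty acid desaturases and elongases, with the linked synthetase gene acs-1, 4 were called lower and 0 higher, and the list's median was -0.31. The acs-1 enzyme activates the branched-chain fatty acids that the elongases ELO-5 and ELO-6 make, and ELO-2 lengthens palmitate. For acs-1 the levels were 34.6, 41.6, 33.1 and 13.5 CPM in the copper-treated mutant and 80.3, 86.8, 99.6 and 81.9 CPM in the untreated mutant. In the control acs-1 had 45.9, 51.4, 55.8 and 55.2 CPM with copper and 14.2, 23.4, 14.5 and 50.6 CPM without. The mutant groups were apart, and the control groups overlapped through untreated replicate 4. The interaction was -2.53 ± 0.52 (adjusted p = 0.00828).

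The elongase genes followed with -2.53 ± 0.61 for elo-5 (adjusted p = 0.0205), -1.60 ± 0.44 for elo-2 (adjusted p = 0.0413) and -2.17 ± 0.60 for elo-6 (adjusted p = 0.0434). None of the 3 had a copper response called in either genotype. Their calls ended in 4, 14 and 16 of 28 alternatives, and without the long-depleted libraries their values were -3.35, -2.26 and -3.64. The elo-5 gene overlaps F41H10.3 on the opposite strand. Lipid-binding proteins that carry fatty acids went the other way: 4 of 14 were called higher and 0 lower, with a median of 1.20. They were lbp-1 (2.52 ± 0.53), far-2 (1.81 ± 0.39), far-1 (2.05 ± 0.50) and lbp-3 (1.11 ± 0.28), with adjusted p from 0.00974 to 0.0281. The values of lbp-1, far-2, far-1 and lbp-3 were 1.40, 1.25, 1.11 and 0.92 in the fit to 11 libraries, all still called. The calls of far-1 and lbp-3 ended in 7 and 11 of 28 alternatives.

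**Figure D4:**
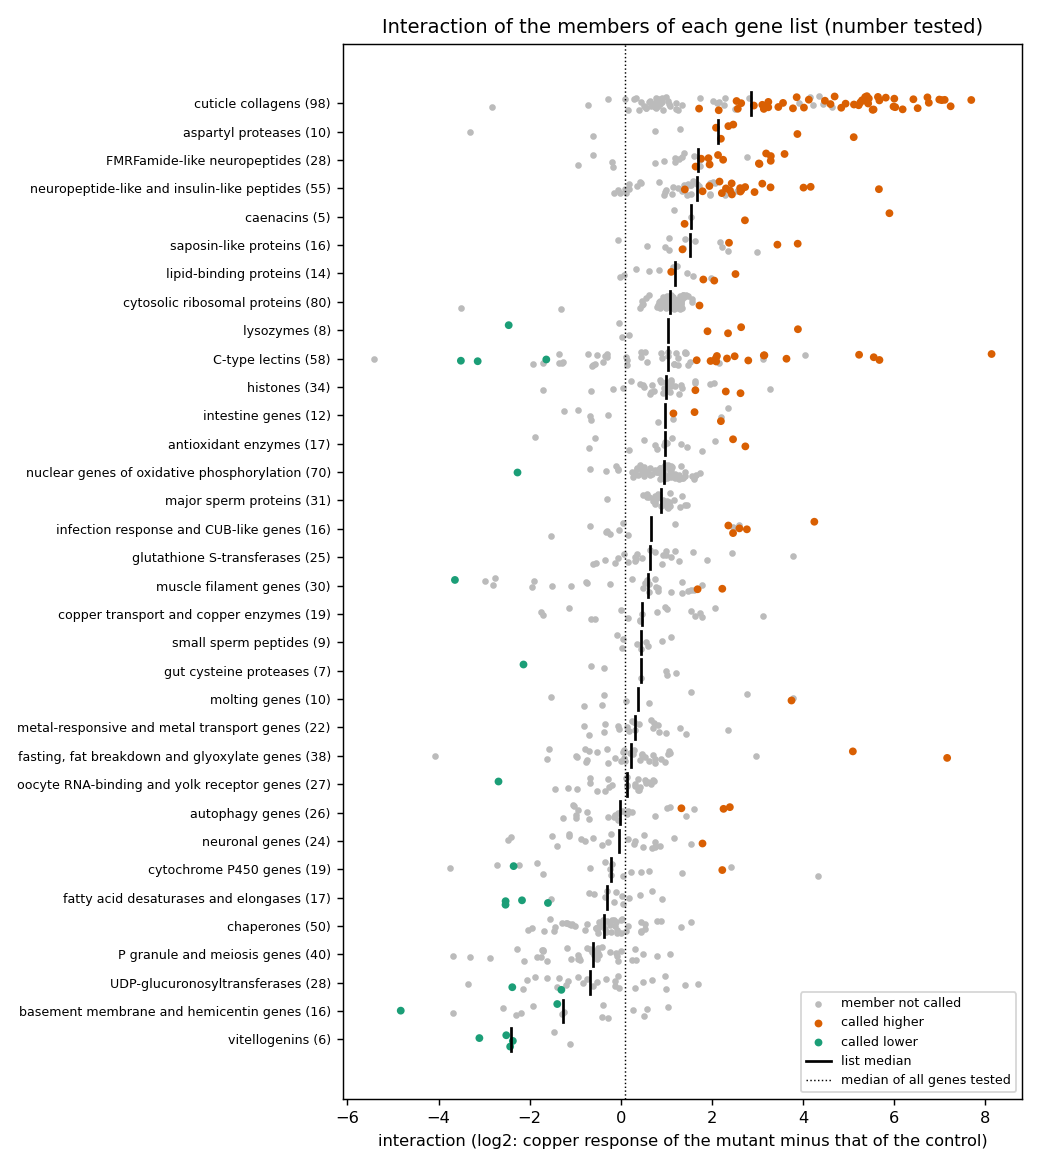
Interaction of every tested member of 34 gene lists (points; grey not called, orange called higher, green called lower), with the list median as a bar and the median of all genes tested, 0.08, as a dotted line. Cuticle collagens have the highest median, 2.86, and vitellogenins the lowest, -2.40, while the copper list has no called member.

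Copper-handling genes themselves had no call. Of 19 genes of copper transport and copper enzymes tested, 0 were called in the interaction by edgeR, and 0 in the copper response of either genotype. At an unadjusted p under 0.05 the interaction counted 8 of the 19, against 2814 of all 9787 genes tested. DESeq2 called 3 higher and 2 lower of the 19, against 644 and 387 of all genes tested. With limma-voom 0 were called, against 397 of all genes tested. These totals are also the background for such counts of the lists below. The median of the copper list was 0.46. Its sign changed without the long-depleted libraries, with length offsets and with the balance as a covariate, where the lowest value was -0.37. The copper chaperone gene cuc-1, whose product hands copper to CUA-1, had an interaction of 0.81 ± 0.48 (adjusted p = 0.246). The gut copper importer gene chca-1 had 0.16 ± 0.56 (adjusted p = 0.855). Both values changed sign in some alternatives.

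Of 22 metal-responsive and metal transport genes, 0 were called by edgeR (4 at an unadjusted p under 0.05, 1 by DESeq2 and 0 by limma-voom), with a median of 0.30. The metallothionein gene mtl-2, whose protein binds metals, had 18.7, 25.1, 19.9 and 49.6 CPM in the copper-treated mutant and 16.8, 14.7, 11.7 and 20.6 CPM in the untreated mutant. It had 57.7, 20.9, 23.3 and 20.8 CPM in the copper-treated control, against 179, 43, 98.8 and 35.4 CPM in the untreated control. The highest libraries of both copper-treated groups and of the untreated control were long-depleted, and the groups overlapped in both genotypes. The interaction of mtl-2 was 2.35 ± 0.69 (adjusted p = 0.0543), and 1.43 (adjusted p = 0.00377) once the long-depleted libraries were left out. It passed the threshold in 6 of 28 alternatives. The genes mtl-1, hsp-16.2 and numr-1 had 15, 51 and 0 counts over all 16 libraries and were not tested.

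Genes of other stress responses were mostly not called. Of 50 chaperones 0 were called by edgeR (10 at an unadjusted p under 0.05, 1 by DESeq2 and 0 by limma-voom), with a median of -0.37. The endoplasmic reticulum chaperone gene hsp-4 had an interaction of -0.39 ± 0.39 (adjusted p = 0.487) and the mitochondrial chaperone gene hsp-6 one of -0.19 ± 0.34 (adjusted p = 0.709). Of 25 glutathione S-transferases 0 were called in the interaction by edgeR (8 at an unadjusted p under 0.05, 2 by DESeq2 and 1 by limma-voom), although 4 were called higher with copper in the mutant, and gst-4, a common readout of oxidative stress, had 0.94 ± 0.68 (adjusted p = 0.343). The signs of hsp-4, hsp-6 and gst-4 changed in some alternatives. The gst-4 gene overlaps another gene on the same strand, dhs-12, and reads of the 2 may not be separable. Its counts were also low in both control groups. The lack of a call for gst-4 therefore cannot show that this readout was alike in the genotypes.

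Among 17 antioxidant enzymes 2 were called higher, against 4.11% of all genes tested. At an unadjusted p under 0.05 the interaction counted 12 of the 17, against 2814 of all 9787 genes tested. The methionine sulfoxide reductase gene msra-1, which repairs oxidised proteins, had 673, 867, 716 and 550 CPM in the copper-treated mutant and 155, 206, 205 and 176 CPM in the untreated mutant. In the control msra-1 had 227, 273, 248 and 232 CPM with copper, against 618, 490, 481 and 137 CPM without. The mutant groups were apart, and untreated control replicate 4 lay below the copper-treated control. The interaction was 2.73 ± 0.45 (adjusted p = 0.00211), and 3.01 without the long-depleted libraries. The gut thioredoxin gene trx-3 was the other, at 2.46 ± 0.65 (adjusted p = 0.0321), and it lost its call in 12 of 28 alternatives.

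Calls among detoxification enzymes are set beside those of all genes tested, of which 5.38% were called, 4.11% higher and 1.28% lower. Of 28 UDP-glucuronosyltransferases, which attach sugar to foreign compounds, 2 were called lower and 0 higher: ugt-22 at -2.38 ± 0.52 (adjusted p = 0.0111) and ugt-12 at -1.30 ± 0.37 (adjusted p = 0.0498). The call of ugt-12 ended in 20 of 28 alternatives, among them the fit without the long-depleted libraries (-1.49, adjusted p = 0.0643). Of 19 cytochrome P450 genes, 1 was higher, cyp-33C8 at 2.23 ± 0.50, and 1 lower, cyp-35A2 at -2.35 ± 0.56. For cyp-35A2 the copper-treated mutant had 3.19, 2.39, 5.64 and 1.46 CPM and the untreated mutant 26.7, 22.4, 13.5 and 24.2 CPM, without overlap.

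Some of the largest interactions belonged to genes with no role given in the files. Among the 12 largest positive ones, of called genes whose log2 CPM averaged 2 or more, were T26H5.9 (7.94 ± 1.23, adjusted p = 0.00197), B0348.2 (7.60 ± 1.21, adjusted p = 0.00202), F41F3.3 (7.34 ± 1.34, adjusted p = 0.00434) and R12E2.7 (7.05 ± 1.32, adjusted p = 0.00501). Without copper the control had 273, 62, 7.05 and 7.30 CPM of F41F3.3 and 79.4, 12.8, 1.32 and 5.06 CPM of R12E2.7. For both, long-depleted replicate 1 was highest and the control groups overlapped. Both lost their call with the balance as a covariate (adjusted p = 0.0859 and 0.116). For B0348.2 the copper-treated mutant had 15.7, 31.3, 20.4 and 70.1 CPM and the untreated mutant 0.661, 1.58, 0.78 and 0.257 CPM, while the control had at most 1.43 CPM with copper and 5.05 CPM without. In the remaining 3 of the 12, a group held 3 counts or fewer. The copper-treated control held 0 counts of E01G4.6, against 50 in the untreated control, at least 21.6-fold lower when 3 counts over the group are taken as the floor. It held 1 count of K02E11.10, with a ratio of 0.0154 (exact 95% counting interval 0.000383 to 0.0899), and 3 counts of col-63, with a ratio of 0.0243 (0.00493 to 0.0733), both over the untreated control. Untreated control replicates 1 to 4 had 17, 3.74, 0.441 and 0 CPM of K02E11.10 and 34.9, 4.67, 0 and 2.25 CPM of col-63. Replicate 1, a long-depleted library, was highest for both, and the control groups overlapped. For E01G4.6 these replicates had 9.18, 8.72, 0.441 and 0.562 CPM. The pooled intervals leave out this spread, and the control response of K02E11.10 was not called (adjusted p = 0.0578).

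The 12 largest negative interactions under the same limit on CPM included 7 genes with a transcript over 3000 bp. The gene AC3.5 (chromosome V, 10388527 to 10393505) had 18.4, 13.4, 28.2 and 2.56 CPM in the copper-treated mutant and 60.9, 58.1, 49.4 and 45.3 CPM in the untreated mutant. It had 6.05, 22.4, 25 and 31 CPM in the copper-treated control, against 2.29, 3.11, 1.76 and 3.37 CPM in the untreated control. The groups of each genotype were apart, and untreated control replicate 2, which is not long-depleted, was as low as the other three. The interaction was -4.75 ± 0.77 (adjusted p = 0.00202), and -4.47 without the long-depleted libraries.

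Others of these 12 did not all keep their call without the long-depleted libraries. The calls of T04F3.1 (-5.26 ± 1.21), T28C6.7 (-4.64 ± 1.04), F54B3.1 (-4.46 ± 1.01) and ubr-4 (-4.45 ± 1.04), a very large ubiquitin ligase gene, were lost there, with adjusted p from 0.0698 to 0.141, while the estimates stayed negative at -4.79, -3.49, -3.52 and -3.16. Those of the ciliary rootlet gene che-10 (-5.34 ± 1.23), T22B7.7 (-5.25 ± 0.99), K09F6.9 (-4.93 ± 1.05), the laminin gene lam-3 (-4.83 ± 1.19) and D1086.3 (-4.64 ± 0.91) held there. With the balance as a covariate che-10, T22B7.7, K09F6.9 and lam-3 lost their calls, and D1086.3 did not. Without the 2 most depleted libraries che-10 and lam-3 lost theirs. For cest-10 (C42D4.2 in the deposited table) and for C41A3.2 the untreated control held 3 counts each and the copper-treated control 59 each, a ratio of 15.1 (exact 95% counting interval 4.94 to 75.6). Of these genes T28C6.7, ubr-4 and C41A3.2 overlap tested genes on the opposite strand.

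With all 16 libraries, markers of the germline and eggshell gave 1 call in each direction, and those of gut and muscle more. Of 21 eggshell genes 1 was called higher and 0 lower. Major sperm proteins (31 tested), small sperm peptides (9) and P granule and meiosis genes (40) had 0 called by edgeR, with medians of 0.87, 0.45 and -0.60, and each of these medians changed sign in at least 1 alternative. At an unadjusted p under 0.05 they counted 8, 0 and 9, against 2814 of all 9787 genes tested. DESeq2 called 0, 0 and 2 of them and limma-voom none. Over the alternatives the median of the major sperm proteins ran from -0.67 to 1.17. Of 27 oocyte RNA-binding and yolk receptor genes, 1 was called, puf-12, at -2.70 ± 0.73. Of 12 intestine genes 3 were called higher, asp-1, the intermediate filament gene ifc-2 (1.62 ± 0.37) and ifb-2 (1.16 ± 0.30), with a median of 0.98, against 4.11% of all genes tested called higher. The calls of ifb-2 and puf-12 ended in 11 and 17 of 28 alternatives. Of 30 muscle filament genes 2 short ones were higher, the myosin light chain genes mlc-2 (1.69 ± 0.43) and mlc-3 (2.23 ± 0.57), and the giant gene unc-22 was lower (-3.64 ± 0.95). Over the libraries that are not long-depleted these 3 were at 0.78, 0.81 and -2.39, the last no longer called (adjusted p = 0.212). Their calls ended in 11, 13 and 14 of 28 alternatives.

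Some lists of short or long transcripts moved with the long-depleted libraries. Many of their members had an unadjusted p under 0.05 for the interaction by edgeR. They were 71 of 80 cytosolic ribosomal protein genes, 28 of 70 oxidative phosphorylation genes and 16 of 34 histone genes, against 2814 of all 9787 genes tested. Over the alternatives 0 to 70, 0 to 25 and 1 to 19 members of these lists were called higher. Of 80 cytosolic ribosomal protein genes 1 was called, rpl-23A.1 (1.71 ± 0.49, and 0.75 without the long-depleted libraries), and their median was 1.08 over all libraries and 0.15 without the long-depleted ones. For 70 nuclear genes of oxidative phosphorylation the medians were 0.94 and 0.09, with 1 called, cyc-2.2, which was lower at -2.28 ± 0.52. For 16 basement membrane and hemicentin genes, whose transcripts have a median of 5663 bp, the medians were -1.27 and -0.56, with lam-3 and unc-52 called lower. The calls of lam-3 and unc-52 ended in 8 and 13 of 28 alternatives, and those of rpl-23A.1, hil-3 and his-37 in 18, 8 and 17. Of 34 histone genes 3 were higher, the linker histones his-24 (2.31 ± 0.47) and hil-3 (2.63 ± 0.65) and his-37 (1.64 ± 0.45, and 1.04 without the long-depleted libraries), with medians of 1.0 over all libraries and 0.37 without the long-depleted ones.

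Length separated the called genes in the same way. The longest transcript had a median of 901.5 bp among the 402 higher genes, of 2199 bp among the 125 lower genes and of 1375 bp over all tested. Only 5 of the 402 were over 3000 bp, against 45 of the 125 and 1187 of 9779 tested genes with a length. Without the 5 long-depleted libraries the interaction was called for 1191 genes (12.2%), 511 higher (5.22%) and 680 lower (6.95%), among them 305 of the 402 and 103 of the 125. The direction of imbalance thus changed: 76.3% of the calls were higher with all libraries and 42.9% without the 5. A core of 150 genes, 125 higher and 25 lower, was called with all libraries and also without the 5, without the 2 most depleted, with length offsets and with the balance as a covariate.

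**Figure D5:**
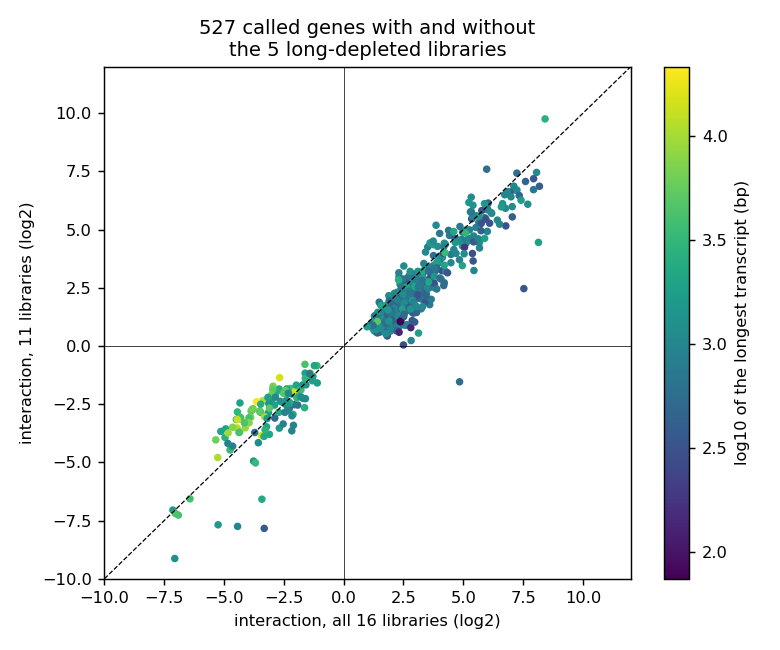
Interaction of the called genes over all 16 libraries (horizontal, log2) and over the 11 libraries that are not long-depleted (vertical, log2), coloured by the log10 length of the longest transcript in bp, with a dashed line of equal values. Most points stay on the same side of 0, and 408 of the 527 were called in both.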

How the data were processed

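The deposited table holds raw read counts per gene for 46904 genes and 16 libraries, with no normalization by the authors. Per the submitters' processing notes the tools were bcl2fastq, STAR 2.6.0a and HTSeq with build ce11; settings, annotation release and strand are not given in the sources used here. Each column was matched to its sample by its heading. Names came from RefSeq (45785 genes matched by identifier), positions and longest transcripts from Ensembl WBcel235, the same assembly as ce11.

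The test was the robust quasi-likelihood test of edgeR 4.0.16 in R 4.3.3, with TMM factors, filterByExpr defaults, 1 mean per group over 16 libraries (12 residual degrees of freedom), and Benjamini-Hochberg adjustment over 9787 genes. The tested genes held 99.45% to 99.78% of each library's counts. The 3 contrasts were the interaction and the copper response of each genotype; all 3 share libraries. The method was tested on simulated data with independent libraries and no depletion of long transcripts, so that test cannot address the long-depleted libraries. P-values measure the spread between these samples, and floors and counting intervals cover counting error only.

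Named genes were cua-1, the 12 largest interactions in each direction (called, with log2 CPM averaging 2 or more), the 5 smallest adjusted p in each direction, up to 4 called members with the smallest adjusted p in each of 34 lists described, and fixed metal, stress and yolk genes. Lists were matched by gene symbol. Members and lists were chosen with earlier results of these data known. Long-depleted libraries were defined from the data as a balance of long and short transcripts below -0.5. Alternatives were other scalings and filters (1 of them asking for 5 CPM in 4 libraries), the DESeq2 1.42.0 test, voom in limma 3.58.1, no robust moderation, the replicate number as a block, length offsets (lowess span 0.3), the balance as a covariate, leaving out the long-depleted libraries and leaving out each library; leaving out the 2 libraries with a balance below -2 was added after seeing the data.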

Additional observations from a re-analysis of the deposited data

Results flagged for a closer look

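The copper response differed between the genotypes, by the test of the interaction itself, for 527 genes. Of these, 27 were called higher with copper in the mutant and lower in the control, and 1, tag-10, was called lower in the mutant and higher in the control. These values are described above.

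Single libraries stood apart in 29 of 419 checks, each of 1 gene or of the balance in 1 group of 4, where the gap to the nearest library took up most of the group's range on the log2 scale, beyond Dixon's 95% limit. Chance flags about 1 in 20 such groups. The balance of long and short transcripts put copper-treated mutant replicate 4 (a gap of 0.895 of the range) and copper-treated control replicate 1 (0.914) apart from their groups, both being long-depleted libraries. In copper-treated mutant replicate 4 the same held for vit-4 (0.902), vit-5 (0.952), vit-3 (0.953) and elo-5 (0.850), which were low there, and for lbp-1 (0.966), flp-15 (0.855), nlp-17 (0.869) and lys-2 (0.945), which were high. In copper-treated control replicate 1 it held for T22B7.7 (0.935), lam-3 (0.925), F54B3.1 (0.837) and puf-12 (0.882), which were low, and for asp-1 (0.884), dod-23 (0.862), his-37 (0.956) and mtl-2 (0.886), which were high. In untreated control replicate 1 it held for vit-5 (0.914) and tag-10 (0.834), both low, and in untreated control replicate 4 for msra-1 (0.833), low. All these libraries are long-depleted, and the part of the depletion in the values was not tested.

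The remaining cases lay in libraries that are not long-depleted. They were cnc-4 in copper-treated mutant replicate 1 (0.912, low), lys-7 (0.842), vit-4 (0.930) and vit-3 (0.912) in untreated mutant replicate 3 (all low), and mec-7 (0.834) and his-24 (0.956) in untreated mutant replicate 2 (both high). For K02E11.10 in copper-treated control replicate 3 and cest-10 in untreated control replicate 2 the gap was the whole range (1.0), because the other libraries of the group held 0 counts.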

How the results depend on the processing

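The untreated control carries the main limit, since 3 of its 4 libraries are long-depleted and the fit without them rests on replicate 2. Of the 97 called genes named, 44 were called under every one of 28 alternatives and 53 lost the call in at least 1. For the interaction (527 genes, 402 higher, 125 lower) DESeq2 called 1031 (644 and 387), the fit without the long-depleted libraries 1191 (511 and 680), the balance as a covariate 245 (163 and 82) and the fit without the 2 most depleted libraries 346 (248 and 98). For copper in the mutant (219) these were 432, 1420 and 397 for the first 3 of these. For copper in the control (174) they were 440, 468, 102 and 92 for the 4, and 45 with limma-voom. Other scalings and filters gave 473 to 574 interaction calls, and length offsets 518.

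Leaving out 1 library gave 330 to 2159 interaction calls, 262 to 1393 higher and 68 to 880 lower, with 330 without copper-treated control replicate 4, 2055 without copper-treated control replicate 1 and 2159 without untreated control replicate 2. It gave 112 to 320 calls for copper in the mutant, with the fewest without untreated mutant replicate 1, and 44 to 884 for copper in the control, with the fewest without copper-treated control replicate 4 and the most without untreated control replicate 2. The cause was not tested.

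Same-numbered libraries did not deviate together throughout (correlations from -0.597 to 0.554, 6 of 24 above 0.1), and replicate numbers were not taken as pairs. Replicate 2 had 0.324, 0.554 and 0.367 among copper-treated mutant, copper-treated control and untreated control, and replicate 1 had 0.468 between the control groups. The part of the long-depleted libraries in these values was not tested, so they cannot show whether replicates were paired. With the replicate number as a block, 379 genes were called in the interaction, 82 of them lower, and 64 for copper in the control.

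Signs changed for unc-52 with length offsets (0.89), for hsp-6 with length offsets (0.56), for hsp-4 with length offsets (0.15) and with the covariate (0.18), and for gst-4 without the long-depleted libraries (-0.73). The value of cuc-1 was -0.0612 without the long-depleted libraries, -0.26 with offsets and -0.49 with the covariate. That of chca-1 was -0.38, -0.27 and -0.78 there, -0.46 without the 2 most depleted libraries, and -0.07, -0.02, -0.05 and -0.22 without copper-treated mutant replicate 4, untreated mutant replicate 1, untreated mutant replicate 4 or untreated control replicate 1, within a range of -0.22 to 0.575 over the libraries left out. Except for unc-52, none of these genes was called. Low counts limit genes near 3 counts per group.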

Other observations

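Genes called in the interaction lay unevenly over the chromosomes, with no test made. They were 8.88% of the tested genes of chromosome V and 8.04% of those of X, against 5.91% on IV, 4.44% on II, 3.11% on III and 2.93% on I. Genes called in the same direction were often neighbours: 92 of the 402 higher genes (22.9%) had another higher gene within 10000 bp, against 951 of 9779 tested genes (9.7%) with a higher gene that near. For the 125 lower genes the count was 12 (9.6%), against 318 of the tested genes (3.3%). Gene families that lie in arrays share sequence and reads may be assigned among their copies.

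The longest runs of higher genes were 5 genes on chromosome V from 3978825 to 3988316, nlp-34, nlp-31, nlp-30, nlp-29 and nlp-28, which belong to the epidermal antimicrobial peptide family, and 4 genes on chromosome X from 8711595 to 8718904, F53A9.1, F53A9.6, F53A9.7 and F53A9.8, for which no role is given in the files. These genes were picked from their positions after the calls were known.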
